A study of Mus musculus with 6 samples.

Results

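The low-density lipoprotein (LDL) receptor family was examined in haematopoietic stem cells (HSCs) through 9 genes, namely *Vldlr*, *Lrp1*, *Lrp5*, *Lrp6*, *Lrp8*, *Lrp10*, *Lrpap1*, *Mylip* and *Apoe*. They are 9 of the 46959 gene rows of the deposited expression table and were matched by symbol. They were chosen with earlier results of the same libraries known, above all the difference in *Vldlr* between the groups, so their differences are given as a description and without a test.

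RNA was sequenced from about 2000 sorted bone marrow HSCs per library, with 3 libraries from control mice and 3 from MaeaCsf1r-Cre littermates, at an age of 8 weeks per the series' design text, while the study's methods give a wider span of young adult ages. MaeaCsf1r-Cre mice carry floxed *Maea* alleles, which encode an E3 ubiquitin ligase, and a *Csf1r*-driven iCre recombinase. The paper states that the iCre line was backcrossed onto C57BL/6, without the number of generations. *Csf1r* is also the receptor gene of the macrophage lineage, so the deletion reaches mononuclear phagocytes as well as HSCs. The cells of each replicate were pooled from a pair of mice. The paper's genotyping of HSCs labels controls as floxed on both alleles (fl/fl) and MaeaCsf1r-Cre mice as fl/fl with Cre. It does not state the genotype of the sequenced controls separately, and a transplant also used fl/+ controls with Cre. If the sequenced controls lacked Cre, the presence of Cre and the loss of *Maea* cannot be told apart. Mice of both sexes were used in the paper unless stated otherwise. The comparison asks how the transcripts of HSCs differ when *Maea* is deleted. Levels are given as CPM, the count of reads of a gene scaled to the size of its library. Control libraries held 108 to 123 CPM of *Maea* itself and MaeaCsf1r-Cre libraries 76.9 to 101 CPM, over the whole gene and not its floxed part. Between 32968000 and 39614000 reads lay behind the scaling of the control libraries and between 44159000 and 60937000 behind that of the MaeaCsf1r-Cre libraries, so every MaeaCsf1r-Cre library was the deeper. The HSC markers *Kit*, *Procr* and *Slamf1* were detected in all 6 libraries, with *Kit* at 393 to 700 CPM. In these bulk libraries, fewer cells of a type and less RNA per cell cannot be told apart.

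Receptors of the LDL receptor family are membrane proteins that bind lipoproteins and other ligands through cysteine-rich repeats and carry them into the cell. VLDLR and LRP8 take up lipoproteins that hold apolipoprotein E and are also the receptors of Reelin, whereas LRP5 and LRP6 are co-receptors of Wnt proteins. The chaperone encoded by *Lrpap1* keeps newly made receptors free of ligand in the secretory pathway, and the ubiquitin ligase encoded by *Mylip*, also called IDOL, is induced by liver X receptors and marks VLDLR and LRP8 for degradation in lysosomes.

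The genes of the family for which the groups did not overlap were *Vldlr* and *Lrp1*, and the 250 bases before their starts are shown to give the reader the DNA at which these transcripts begin. Both come from RefSeq on GRCm38.p6 and read 5′ to 3′ on the gene's strand, with CG dinucleotides in capitals. The *Vldlr* stretch is chr19:27216234-27216483 on the plus strand, and the *Lrp1* stretch is chr10:127621149-127621398 on the minus strand.
Vldlr: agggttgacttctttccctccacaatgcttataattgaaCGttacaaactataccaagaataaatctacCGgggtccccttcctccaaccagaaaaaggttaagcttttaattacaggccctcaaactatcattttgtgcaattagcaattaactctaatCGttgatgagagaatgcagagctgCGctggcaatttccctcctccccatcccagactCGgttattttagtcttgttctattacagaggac
Lrp1: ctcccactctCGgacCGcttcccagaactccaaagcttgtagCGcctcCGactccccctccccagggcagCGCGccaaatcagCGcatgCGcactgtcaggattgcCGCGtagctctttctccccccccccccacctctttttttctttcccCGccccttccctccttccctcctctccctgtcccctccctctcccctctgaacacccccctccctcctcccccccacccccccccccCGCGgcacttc
The *Vldlr* stretch held 5 CG dinucleotides and 41.6% G or C, and 14.9% of the 32851 mouse promoters of the same length had a lower G or C content. The *Lrp1* stretch held 13 CG dinucleotides and 67.2% G or C, above 86.5% of the promoters. RefSeq also gives a later start of *Vldlr*, whose window of 300 bases held 23 CG dinucleotides and 68.0% G or C, above 87.4% of all windows, and the data do not tell the starts apart. Windows of 300 bases, from 250 before to 50 after a start, were searched on both strands for motifs of factors that act on sterol, hypoxia and liver X receptor target genes. There were 12 such windows for 7 of the 9 genes, and the set of promoters used held none for *Lrp5* and *Lrp6*. The sterol response element, with at most 1 mismatch, was in none of the 12 windows and in 1.95% of all windows. The direct repeat with a spacer of 4 (DR4) to which liver X receptors bind, with at most 2 mismatches, was in none of the 12 and in 3.02% of all windows. The hypoxia core ACGTG was in 1 window, that of *Lrp10*, against 19.6% of all windows, and the E-box CACGTG, which contains that core, was in none, against 7.15%. The search covers these letters in these windows only, and no binding was measured.

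*Vldlr* encodes the receptor for very low-density lipoprotein and spans bases 27216484 to 27254231 of chromosome 19 (GRCm38, plus strand). Its level was 18.0, 25.0 and 15.4 CPM in the control libraries, listed here and below by replicate number from 1 to 3, and 50.6, 61.2 and 55.7 CPM in the MaeaCsf1r-Cre libraries. Every MaeaCsf1r-Cre library was above every control library, and the gap between the groups was wider than the range within either of them. The means were 19.4 ± 4.96 and 55.8 ± 5.27 CPM (SD, n = 3 each), a ratio of 2.87 and a log2 difference (log2FC) of 1.50 ± 0.19 (standard error, SE) on the log2(CPM + 1) scale used throughout. Between libraries of the same replicate number the log2 difference was 1.44, 1.26 and 1.79. The values rest on 526 to 3086 reads per library. Of the 12955 genes tested, 9 had a larger log2FC, and among the 9308 with a control mean of at least 10 CPM, a minimum set after the values were seen, *Vldlr* ranked 1.

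*Lrp1*, a large endocytic receptor of lipoproteins and protease complexes that macrophages and liver cells use, lies on chromosome 10 from 127538161 to 127621148 on the minus strand. It was at 3.34, 3.69 and 1.78 CPM in the control replicates and at 0.935, 0.747 and 0.699 CPM in the MaeaCsf1r-Cre replicates. All MaeaCsf1r-Cre libraries were below all control libraries, with control replicate 3 the nearest to them. The means were 2.93 ± 1.01 and 0.794 ± 0.125 CPM (SD, n = 3 each), with log2FC at -1.10 ± 0.26 (SE). The counts are low, 31 to 146 reads per library. In control replicate 3 the exact Poisson 95% interval was 1.36 to 2.29 CPM, above the interval of 0.708 to 1.21 CPM in MaeaCsf1r-Cre replicate 1, and both cover counting error only. *Lrp1* passed the filter of 1 CPM in at least 3 libraries only through the control group, so it had to differ.

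*Lrp8*, also called ApoER2, is the receptor closest to VLDLR in its ligands and lies on chromosome 4 from 107802261 to 107876840, plus strand. It did not share the pattern of *Vldlr*, with 15.3, 18.1 and 27.1 CPM in the control replicates and 18.4, 19.6 and 15.9 CPM in the MaeaCsf1r-Cre replicates. The groups overlapped, and control replicate 3 held the highest value. The log2FC was -0.13 ± 0.22 (SE), and it became 0.10 without that library. Scaled to the longest transcript, the ratio of *Vldlr* to *Lrp8* was 0.976, 1.15 and 0.471 in the control replicates and 2.29, 2.60 and 2.91 in the MaeaCsf1r-Cre replicates. *Lrp8* was thus close to *Vldlr* or above it in control libraries and well below it in all MaeaCsf1r-Cre libraries.

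Of the Wnt co-receptors, *Lrp5* (chromosome 19, 3584828 to 3686564, minus strand) was at 17.4, 34.8 and 30.1 CPM in the control replicates and at 14.9, 25.8 and 25.2 CPM in the MaeaCsf1r-Cre replicates. Replicate 1 was the lowest of both groups, and the ranges overlapped. *Lrp5* was lower in the MaeaCsf1r-Cre library of each of the 3 replicate numbers, and its log2FC was -0.29 ± 0.30 (SE, and 0.12 when blocked by replicate). *Lrp6* (chromosome 6, 134446476 to 134566965, minus strand) was at 29.3, 37.3 and 38.8 CPM in the control replicates and at 27.9, 30.5 and 28.6 CPM in the MaeaCsf1r-Cre replicates. It too was lower at all 3 replicate numbers, while control replicate 1 lay within the MaeaCsf1r-Cre range. Its means were 35.2 ± 5.10 and 29.0 ± 1.35 CPM (SD, n = 3 each), with log2FC at -0.26 ± 0.15 (SE).

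*Lrp10* (chromosome 14, 54464137 to 54471497, plus strand) encodes a receptor of the family found at the Golgi and in endosomes, and it was the most abundant receptor of the 6. It was at 176, 177 and 152 CPM in the control replicates and at 179, 162 and 197 CPM in the MaeaCsf1r-Cre replicates. The groups overlapped, with means of 168 ± 14.2 and 179 ± 17.5 CPM (SD, n = 3 each) and a log2FC of 0.09 ± 0.13 (SE).

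*Lrpap1*, the gene of the receptor chaperone (chromosome 5, 35091501 to 35105766, minus strand), was at 69.6, 88.0 and 85.1 CPM in the control replicates and at 66.2, 71.5 and 90.3 CPM in the MaeaCsf1r-Cre replicates. Both groups spanned nearly the same range, and the log2FC was -0.09 ± 0.16 (SE). *Mylip*, the gene of the ligase that acts on these receptors (chromosome 13, 45389742 to 45412022, plus strand), was at 9.25, 10.02 and 12.1 CPM in the control replicates and at 3.33, 5.77 and 12.8 CPM in the MaeaCsf1r-Cre replicates. MaeaCsf1r-Cre replicates 1 and 2 were below every control beyond counting error, with exact Poisson 95% intervals of 2.89 to 3.82 and 5.09 to 6.53 CPM beside 8.24 to 10.4 CPM in the lowest control. Replicate 3, at 11.8 to 13.9 CPM, was not distinguishable from control replicate 3, at 11.0 to 13.3 CPM. The log2FC of *Mylip* was -0.62 ± 0.39 (SE), with differences of -1.24, -0.70 and 0.07 at replicate numbers 1, 2 and 3. *Vldlr* was high in all 3 MaeaCsf1r-Cre libraries. The ligase acts on the VLDLR protein, which was not measured here, and a link between the 2 transcripts was not tested.

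*Apoe*, the gene of the ligand apolipoprotein E, lies on chromosome 7 from 19696109 to 19699188, minus strand, and was the most abundant of the 9 genes. It was at 266, 199.7 and 276 CPM in the control replicates and at 168, 234 and 289 CPM in the MaeaCsf1r-Cre replicates. The groups overlapped, with means of 247 ± 41.6 and 230 ± 60.9 CPM (SD, n = 3 each) and a log2FC of -0.12 ± 0.22 (SE). In 0 of the 6 libraries did its value correspond to a whole number of reads, so its read counts are not known exactly.

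**Figure D1:**
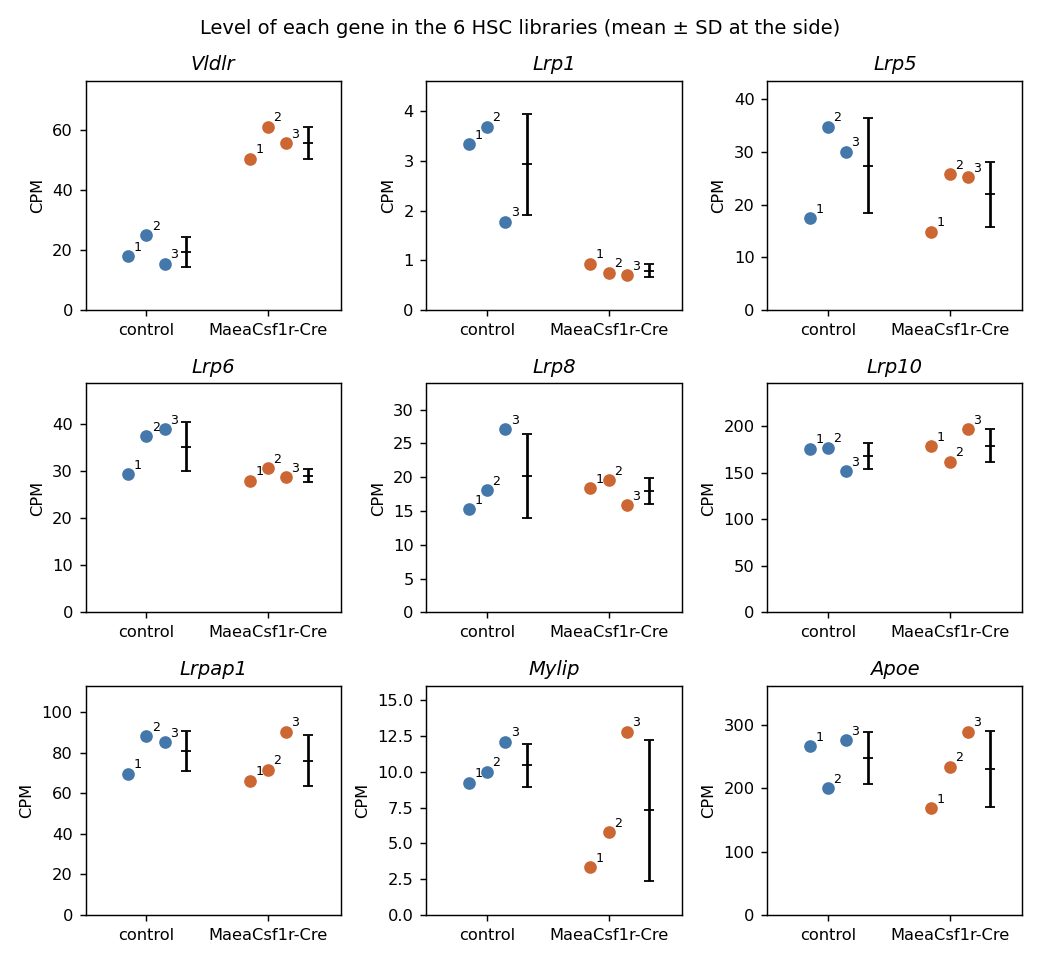
Level of each of the 9 genes in CPM (vertical axis, from 0) in the control and MaeaCsf1r-Cre libraries, with 1 point per library, the replicate number beside it, and the mean ± SD (n = 3) at the side. *Vldlr* lies at 15.4 to 25.0 CPM in control and at 50.6 to 61.2 CPM in MaeaCsf1r-Cre libraries, *Lrp1* is lower in every MaeaCsf1r-Cre library, and the other 7 genes overlap.

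Over the 9 genes, 1 was higher and 1 lower without overlap between the groups, where 8.55% of all 12955 genes tested did not overlap, 2.49% higher and 6.06% lower. At an adjusted p under 0.05 (limma's moderated test with Benjamini-Hochberg adjustment over all genes tested), 0 of the 9 genes were called, where 0.00772% of all genes were, and blocking by replicate gave the same counts. Since the genes were chosen on this contrast, nothing is read from these counts. The median log2FC of the 9 genes was -0.13, beside -0.06 over all genes tested, and 7 of the 9 were on the lower side.

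**Figure D2:**
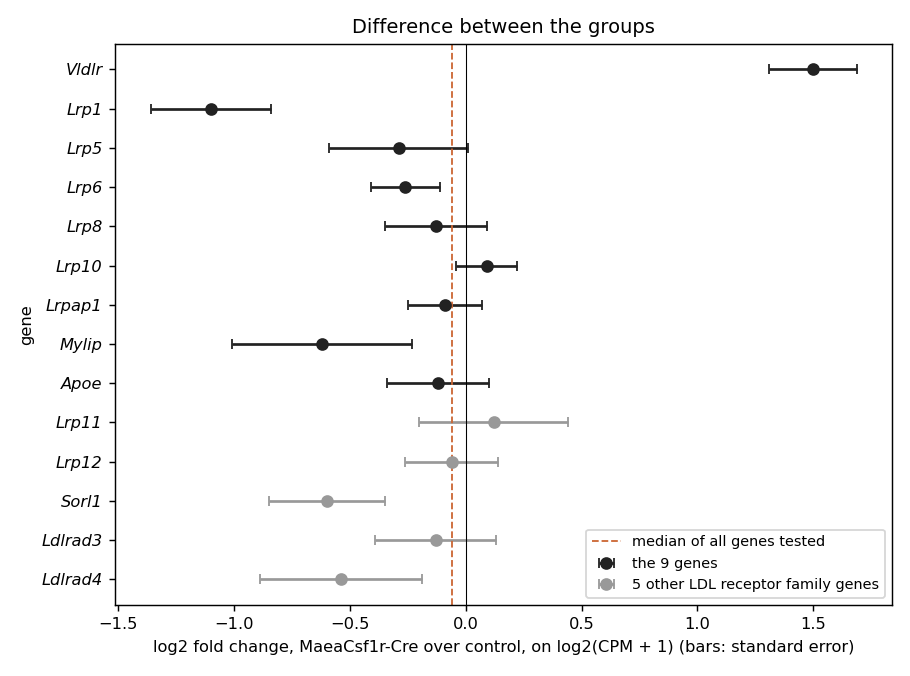
Log2 fold change of MaeaCsf1r-Cre over control on log2(CPM + 1) (horizontal axis, bars are standard errors) for the 9 genes (black) and for 5 other tested genes of the LDL receptor family (grey), with the median of all genes tested at -0.06 as a dashed line. *Vldlr* at 1.50 and *Lrp1* at -1.10 stand at the ends, and the other genes lie between -0.62 and 0.12.

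Levels of different genes were compared per kilobase of the longest annotated transcript, as CPM per kb. The order of the lower genes depends on that length. The longest transcript was 14888 bases for *Lrp1* and 7971 for *Vldlr*, and the median one 772.5 and 3256.5 bases. The order below holds for the longest transcripts only. In control HSCs the order from the highest mean was *Apoe* at 176 ± 29.5, *Lrp10* at 39.8 ± 3.36, *Lrpap1* at 27.1 ± 3.31, *Lrp6* at 3.75 ± 0.545, *Mylip* at 3.41 ± 0.485, *Lrp5* at 3.09 ± 1.01, *Lrp8* at 3.05 ± 0.928, *Vldlr* at 2.44 ± 0.622 and *Lrp1* at 0.197 ± 0.0681 CPM per kb (SD, n = 3 each). The neighbours from *Lrp6* to *Vldlr* in this order overlapped between libraries, and the top 3 genes and *Lrp1* stood apart. In MaeaCsf1r-Cre HSCs *Vldlr* was at 7.01 ± 0.662 CPM per kb (SD, n = 3), rank 4 of the 9 genes instead of rank 8, below *Lrpap1* and above *Lrp6* in every library. *Lrp8*, *Lrp5* and *Mylip* still overlapped there, and *Lrp1* stayed last at 0.0533 ± 0.00838 CPM per kb (SD, n = 3).

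Of the summed level per kb of the 6 receptors, *Vldlr* made up 4.39, 5.62 and 3.89% in the control replicates and 11.3, 13.9 and 11.3% in the MaeaCsf1r-Cre replicates. Its share was higher in all MaeaCsf1r-Cre libraries, with means of 4.63 ± 0.888% and 12.2 ± 1.52% (SD, n = 3 each), and with the median transcript length in place of the longest it was 2.39% and 6.51%. *Lrp10* held the main part in both groups, 76.0 ± 4.31% and 73.4 ± 3.37% (SD, n = 3 each). The share of *Lrp6* was 7.20 ± 1.14% in control and 5.38 ± 0.493% in MaeaCsf1r-Cre libraries (SD, n = 3 each), but *Vldlr* stands in the same sum. Without *Vldlr* in the sum, the share of *Lrp6* was 6.36, 7.57 and 8.70% in the control replicates and 5.97, 6.86 and 5.56% in the MaeaCsf1r-Cre replicates, and the groups overlapped. The sum itself was 52.3 ± 3.18 and 57.7 ± 3.65 CPM per kb (SD, n = 3 each), and the libraries overlapped.

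**Figure D3:**
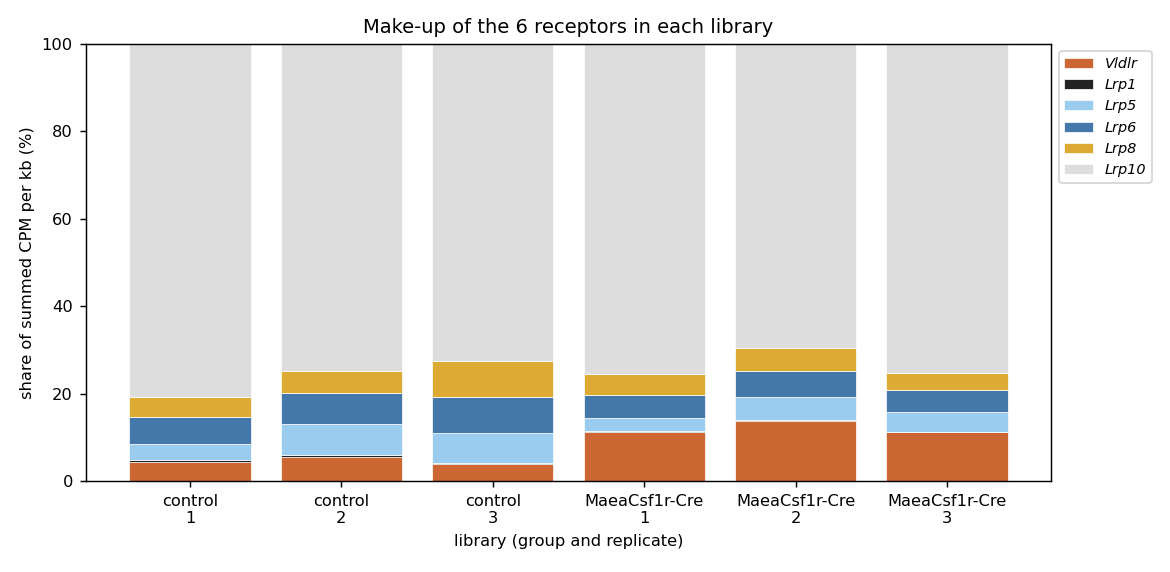
Share of each of the 6 receptors in their summed level (CPM per kb of the longest transcript, vertical axis in percent) in each library, stacked to 100. *Vldlr*, at the base, takes 3.89 to 5.62% in control and 11.3 to 13.9% in MaeaCsf1r-Cre libraries, and *Lrp10*, at the top, takes the main part in all 6.

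The other genes of the family and of its pathways were grouped in 6 lists. Their counts of genes without overlap are to be read beside the 2.49% higher and 6.06% lower over all genes tested, and their counts of called genes beside 0.00772%. Of 12 other family members, 6 were tested, and of these 0 were called and 1, *Sorl1*, was lower without overlap. *Lrp4*, too low to be tested, was also lower without overlap, at 0.698, 1.01 and 0.672 CPM in the control replicates and at 0.279, 0.430 and 0.564 CPM in the MaeaCsf1r-Cre replicates. *Sorl1*, a sorting receptor of endosomes, had means of 9.47 ± 2.97 and 5.82 ± 1.12 CPM (SD, n = 3 each), with log2FC at -0.60 ± 0.25 (SE, adjusted p in limma = 0.967, or 0.281 when blocked by replicate). *Lrp1b* and *Ldlrad2* were listed at 0 in every library and *Lrp2* at no more than 0.0292 CPM, below the level of 3 reads, which was 0.0492 to 0.0910 CPM. The median log2FC of the 6 tested genes was -0.19, and it was -0.37 without control replicate 1, -0.33 without MaeaCsf1r-Cre replicate 2, -0.08 without control replicate 3 and -0.03 without MaeaCsf1r-Cre replicate 1.

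Of 26 genes for ligands and lipoprotein handling, 13 were tested, 0 were called, 0 were higher and 1 lower without overlap, with a median log2FC of -0.28, or -0.05 over the list with no filter on low values. That gene was *Apob*, the structural protein of LDL and VLDL particles, at 2.46 ± 0.603 and 0.558 ± 0.336 CPM (SD, n = 3 each). Like *Lrp1*, it passed the filter only through the control group, so its groups could not overlap. *Lpl*, the lipase that binds VLDLR, was at 3.96 to 8.68 CPM in the control replicates and at 1.13, 1.15 and 5.44 CPM in the MaeaCsf1r-Cre replicates, with overlap. Of 24 adaptor and trafficking genes 21 were tested and 0 called, with a median of -0.08. *Usp8*, a deubiquitinase of endosomes, was lower without overlap in this list, at 64.4 ± 1.58 and 50.8 ± 4.60 CPM (SD, n = 3 each), with an adjusted p of 0.967 from limma. The recycling factor *Snx17* and the chaperone gene *Mesdc2* overlapped, with log2FCs of 0.07 and 0.02.

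Among the Wnt partners of *Lrp5* and *Lrp6*, 23 of 36 genes were tested, 0 were called and 4 were lower without overlap, with a median log2FC of -0.15. They included the kinase *Csnk1g1*, which phosphorylates LRP6, at 24.6 ± 4.82 and 16.4 ± 1.89 CPM (SD, n = 3 each), with log2FC at -0.55 ± 0.19 (SE, adjusted p in limma = 0.967). The Wnt receptor *Fzd3* was at 4.96 ± 1.53 and 3.07 ± 0.502 CPM, and the scaffold *Dvl3* was at 18.0 ± 1.11 and 16.1 ± 0.658 CPM (SD, n = 3 each), with adjusted p-values of 0.967 from limma. *Axin2*, a Wnt target too low to be tested, was higher without overlap. It was at 0.152, 0.0505 and 0.204 CPM in the control replicates and at 0.624, 0.317 and 0.474 CPM in the MaeaCsf1r-Cre replicates. Control replicate 2 was below its level of 3 reads, 0.0757 CPM, so nothing is read from *Axin2*. *Dkk3*, also untested, was lower without overlap, at 0.243, 0.252 and 0.263 CPM in the control replicates. In the MaeaCsf1r-Cre replicates *Dkk3* was at 0, 0.0226 and 0.0226 CPM, below the level of 3 reads.

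Of 20 genes of liver X receptor and SREBP control, 19 were tested, 0 were called and 3 were lower without overlap, with a median log2FC of -0.24. The cholesterol exporter *Abca1*, a liver X receptor target like *Mylip*, was at 17.3, 22.6 and 18.1 CPM in the control replicates and at 4.55, 9.94 and 16.5 CPM in the MaeaCsf1r-Cre replicates. As for *Mylip*, MaeaCsf1r-Cre replicate 1 was the lowest and replicate 3 was close to the controls. In the same list *Abcg1* was also lowest in MaeaCsf1r-Cre replicate 1, at 56.6 CPM. *Lpcat3* and *Srebf1* did not share this pattern and overlapped between the groups, with log2FCs of 0.06 and 0.05. A common cause for *Mylip* and *Abca1* was not tested. The log2FC of *Abca1* was -0.98 ± 0.38 (SE, adjusted p in limma = 0.967). *Nr1h3*, the gene of liver X receptor alpha, was at 1.72 ± 1.14 and 0.693 ± 0.213 CPM (SD, n = 3 each), and it too passed the filter only through the control group, so its groups could not overlap. Of 9 factors known to act on *Vldlr* 8 were tested, 0 were called and all 8 overlapped. *Hif1a*, the hypoxia factor that activates *Vldlr*, had a log2FC of -0.58 ± 0.22 (SE), and *Atf4*, a stress factor that also acts on it, 0.34 ± 0.19 (SE), with adjusted p-values of 0.967 from limma. The smallest adjusted p over these 8 genes was 0.967, and 0.141 with the block.

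The annotation placed 28 other genes within 1 Mb of the start of *Vldlr*, of which 12 were in the table and 3 were tested. *Smarca2*, a chromatin remodelling ATPase whose start lies at -611 kb from that of *Vldlr*, was at 98.7 ± 30.8 and 70.6 ± 20.5 CPM (SD, n = 3 each). *Pum3*, 213 kb after it, was at 99.6 ± 2.07 and 103 ± 19.1 CPM, and *Rfx3*, 795 kb after it, was at 8.26 ± 2.68 and 5.93 ± 1.65 CPM (SD, n = 3 each). All 3 overlapped between the groups and 0 had an unadjusted p under 0.05 with limma, as 3.99% of all genes tested did, with log2FCs of -0.47, 0.03 and -0.40.

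Likeness to *Vldlr* was measured as Pearson's r of log2(CPM + 1) over the 6 libraries, which share the group difference, so it is given as a description. The highest r were those of *Gm26917* (0.9757), *C920025E04Rik* (0.967), *C4b* (0.9611), *Skiv2l* (0.9585) and *Clec10a* (0.9572), and all 5 genes were higher in every MaeaCsf1r-Cre library. *C4b*, a complement gene on chromosome 17, had means of 1.07 ± 0.255 CPM in control and 6.11 ± 1.70 CPM in MaeaCsf1r-Cre libraries (SD, n = 3 each). Of the others, *Gm26917* and *Skiv2l* also lie on chromosome 17 and *Clec10a* on chromosome 11. The lowest r were those of *AW011738* (-0.983), *Gm13152* (-0.9822), *AW146154* (-0.9786), *Gm13142* (-0.9771) and the interferon-induced *Oas2* (-0.976). Within the family r with *Vldlr* ran from -0.807 for *Lrp1* to 0.456 for *Lrp10*.

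The sort took cells negative for lineage markers of T, B, myeloid and erythroid cells and positive for Sca-1, c-Kit and CD150 but not CD48, a gate that leaves out mature B and CD11b+ cells and names no endothelial marker. Genes of other cell types were examined beside these values, since *Lrp1* and *Apoe* are abundant in macrophages and *Vldlr* in endothelium. Of 16 macrophage markers 15 had a lower mean in MaeaCsf1r-Cre libraries, 10 were tested and 5 of those were lower without overlap, against 6.06% of all genes tested. Of these 5, *C1qa*, *C1qb* and *C1qc* passed the filter only through the control group, so they had to differ. The summed level of the 16 markers was 78.9 to 169 CPM in control and 44.8 to 122 CPM in MaeaCsf1r-Cre libraries, with none at 0 in every library. *C1qa*, *C1qb* and *C1qc*, which encode complement C1q in macrophages, summed to 19.8, 7.85 and 12.5 CPM in the control replicates and to 0.0656, 0.0226 and 0.744 CPM in the MaeaCsf1r-Cre replicates. *C1qa* was at 0 in MaeaCsf1r-Cre replicates 1 and 2. *Lrp1* also passed the filter only through the control group, so its shared direction with the C1q genes was fixed and is not read as a link. The part of macrophage transcripts in its difference was not tested. The paper states that deleting *Maea* with *Csf1r*-Cre also causes defects of bone marrow macrophages. *Lrp1* was highest in control replicate 2, which had the lowest C1q sum of the controls. The exact Poisson interval of *Lrp1* there, 3.11 to 4.33 CPM, overlapped that in control replicate 1, 2.74 to 4.02 CPM. Control replicates 1 and 2 were thus not distinguishable in *Lrp1*. In control replicate 3 the interval of *Lrp1* was 1.36 to 2.29 CPM, below both, while its C1q sum lay between theirs. *Apoe* overlapped between the groups, whereas the C1q genes could not, given how they passed the filter. The part of macrophage transcripts in the level of *Apoe* was not tested. The adhesion gene *Vcam1*, from the macrophage list, was at 28.5, 2.60 and 26.7 CPM in the control replicates. In the MaeaCsf1r-Cre replicates *Vcam1* was at 0.525, 0 and 30.0 CPM. *Apoe* was likewise highest in control replicates 1 and 3 and MaeaCsf1r-Cre replicate 3. The endothelial genes *Stab2* and *Cdh5*, given below, were highest in the same libraries, whereas the C1q sum was not. This likeness is therefore not particular to macrophage genes.

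The summed level of 9 endothelial markers was 246 to 437 CPM in control and 177 to 508 CPM in MaeaCsf1r-Cre libraries, with none at 0 in every library 5 of 9 lower by mean CPM and 9 of 9 lower by mean log2(CPM + 1). *Stab2*, a scavenger receptor of sinusoidal endothelium, was at 10.1, 0.202 and 41.3 CPM in the control replicates and at 0.427, 0.362 and 66.2 CPM in the MaeaCsf1r-Cre replicates. The cadherin gene *Cdh5* was at 5.82, 0.278 and 13.0 CPM and at 0.624, 0.566 and 22.1 CPM. Both genes were thus high in control replicates 1 and 3 and in MaeaCsf1r-Cre replicate 3, and were picked after their values were seen. *Kdr*, *Plvap* and *Flt1* shared this pattern, while *Pecam1*, *Tek*, *Emcn* and *Eng* did not. *Pecam1* was at 28.2, 36.2 and 41.7 CPM in the control replicates and at 16.7, 35.9 and 42.0 CPM in the MaeaCsf1r-Cre replicates. *Vldlr* was high in all 3 MaeaCsf1r-Cre replicates, and the part of endothelial transcripts in its level was not tested. The summed B cell markers were lower without overlap, at 33.8 to 55.4 CPM in control and 13.9 to 27.0 CPM in MaeaCsf1r-Cre libraries, with 3 of 8 lower by mean. *Ighm*, the heavy chain of IgM, made this difference, at 17.9 ± 11.0 and 1.12 ± 1.02 CPM (SD, n = 3 each), while the defining markers *Ms4a1* and *Pax5* were at 0 in every library. *Ighm* was lower where *Lrp1* was lower and *Vldlr* higher, and its part in these results was not tested. The summed level of 12 HSC markers was 1260 to 1970 CPM in control and 898 to 1660 CPM in MaeaCsf1r-Cre libraries, lower in the MaeaCsf1r-Cre library at all 3 replicate numbers although the groups overlapped, and 10 of the 12 were lower by mean. Its part in the results was not tested. Summed markers of megakaryocytes, erythroid cells, granulocytes, T or NK cells and stroma overlapped between the groups.

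**Figure D4:**
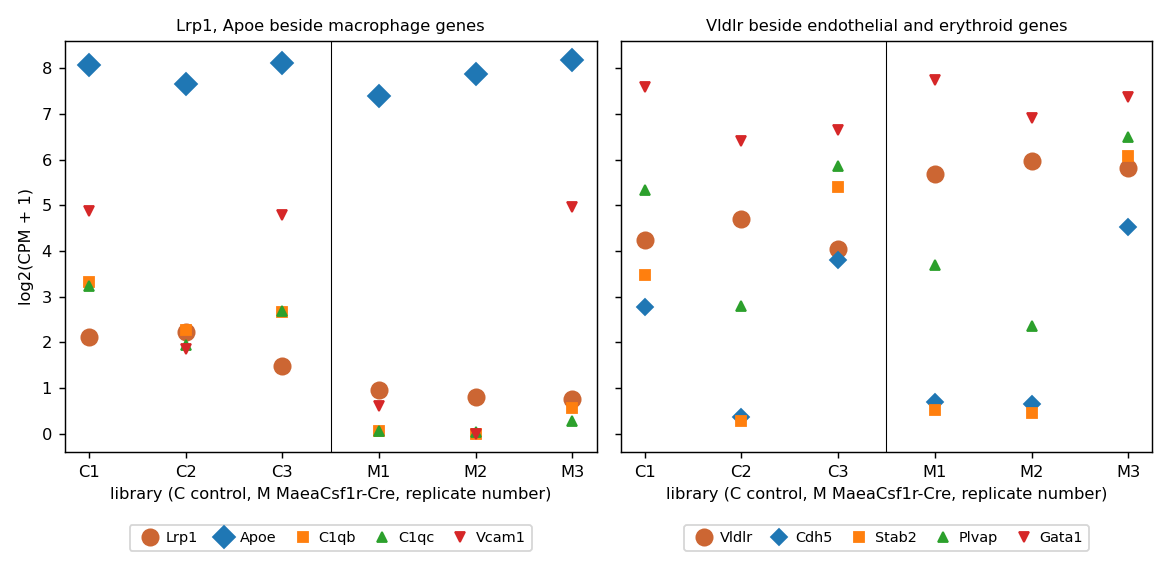
Level in log2(CPM + 1) (vertical axis), with 1 point per gene and library (C control, M MaeaCsf1r-Cre, with the replicate number). On the left are *Lrp1* and *Apoe* beside *C1qb*, *C1qc* and *Vcam1* from the list of macrophage markers. On the right are *Vldlr*, the endothelial genes *Cdh5*, *Stab2* and *Plvap* and the erythroid gene *Gata1*. *Lrp1*, *C1qb* and *C1qc* are below every control in all MaeaCsf1r-Cre libraries, which was fixed by how they passed the filter. *Stab2* is high in C1, C3 and M3, and *Vldlr* is high in M1, M2 and M3. The endothelial markers *Pecam1*, *Tek*, *Emcn* and *Eng*, not drawn, did not share the pattern of *Stab2*.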

How the data were processed

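RNA from 3 control and 3 MaeaCsf1r-Cre HSC libraries was analysed. Per the paper's methods, cDNA was made with SMART-Seq v4 and tagmented with Nextera XT, which does not mark strand. The authors mapped the reads to mm10 (STAR 2.5.3a) and obtained gene values from Ensembl transcripts in Partek Flow. The table they deposited holds CPM with an offset of 0.0001, which was subtracted. Steps between low CPM values gave the depth. Of the low values 76.2 to 78.3% lay within 0.05 of a whole read, which was too few to recover counts, and no count test was run.

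Testing was limited to the 12955 genes at 1 CPM or more in 3 or more libraries and used log2(CPM + 1) in limma 3.58.1 (R 4.3.3, moderated test with a mean-variance trend, two-sided, Benjamini-Hochberg adjustment, threshold 0.05). Each replicate pooled a pair of mice, so p-values measure the spread between pools. Deviations from the group means correlated between libraries of the same number (Pearson's r of 0.627, 0.523 and 0.397 across genes), so a second fit took the replicate number as a block. This pairing comes from the data, not from a statement in the labels. The members and gene lists were chosen with earlier results of these data known.

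Named genes were the 9 members, *Maea*, up to 3 genes per pathway list with the smallest p and no overlap between groups, the 5 highest and 5 lowest in likeness to *Vldlr*, the tested genes within 1 Mb of it, and *C1qa*, *C1qb*, *C1qc* and *Vcam1*. Other pathway and marker genes named were chosen after their values were seen. The values of some listed genes are not reported here. Gene lengths and places come from GENCODE on GRCm38, which matched 44119 symbols, and promoters from RefSeq. The fit was also run with 0.1 as the pseudocount, without a filter, with a filter of 10 CPM, with median ratio and quantile scaling, without the trend, with the block, without each library in turn and with median transcript lengths. The procedure was tested on simulated data.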

Additional observations from a re-analysis of the deposited data

How the results depend on the processing

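*Vldlr* had a log2 difference (log2FC) of 1.35 to 1.68 over 10 alternatives and *Lrp1* one of -1.71 to -0.91, the lowest with a pseudocount of 0.1. *Lrp5* (-0.58 to -0.05), *Lrp6* (-0.38 to -0.19), *Mylip* (-1.07 to -0.24) and *Lrp10* (0.02 to 0.17) kept their sign, whereas *Lrp8* (-0.29 to 0.10) and *Apoe* (-0.30 to 0.09) changed it in 1 alternative each and *Lrpap1* reached 0.00 at 2 decimals.

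Over all genes, 1 was called, and 0 with a filter of 10 CPM (302 at an unadjusted p under 0.05). With single libraries left out the count was 0 to 3, being 0 without control replicate 2 (266 at an unadjusted p under 0.05) or control replicate 3 (331) and 3 without MaeaCsf1r-Cre replicate 3. With the replicate block 1 gene was called, the same one, while genes at an unadjusted p under 0.05 went from 517 to 1805, and the block changed no other call. The median of all genes was -0.06, and 0.01 with either other scaling.

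List medians moved as follows. With single libraries left out they ran from -0.37 to -0.03 for the other family members, from -0.75 to -0.11 for ligands and lipoprotein handling (-0.75 without control replicate 2), from -0.31 to -0.12 for Wnt partners (-0.31 without control replicate 1), from -0.42 to -0.07 for liver X receptor and SREBP control (-0.42 without MaeaCsf1r-Cre replicate 2, -0.13 without control replicate 2 and -0.07 without MaeaCsf1r-Cre replicate 1) and from -0.41 to -0.06 for the factors acting on *Vldlr* (-0.06 without MaeaCsf1r-Cre replicate 2). Quantile scaling gave -0.11 for liver X receptor and SREBP control, no filter gave -0.05 for ligands and lipoprotein handling, and no filter or a filter of 10 CPM gave -0.05 for the factors acting on *Vldlr*. With median transcript lengths the share of *Vldlr* was 2.39% in control and 6.51% in MaeaCsf1r-Cre libraries. Depth limits *Lrp1* most, at 31 to 146 reads, and genes under 3 reads cannot be compared. The cause of these shifts was not tested.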
